A study of Mus musculus with 48 samples.

Results

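The genes described here were 111 protein-coding genes of mouse cerebellum. Their messenger RNA was higher in rotarod-trained mice than in mice at rest, and lower in Chd4 conditional knockout mice than in wild type. They were chosen by those very values. A gene had to be listed in both deposited tables of called genes, with a mean of the trained libraries above that of the rest libraries and a mean of the knockout libraries below that of the wild-type libraries. The tables held 908 and 5508 genes, 6094 in all, and 322 genes stood in both, of which 301 were protein coding. Of those, 130 moved in these directions, and 19 of the 130 belong to gene families or single genes that the rule left out (among them Nr4a1, Nr4a3 and Eomes). With the same families left out, 58 genes were higher in both comparisons, 51 were lower with training and higher in the knockout, and 36 were lower in both. Both directions, and the presence of each gene in both tables, are therefore properties of the choice and not findings, and no test is given on them.

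The series compared chromatin and RNA of wild-type (WT) and Chd4 conditional knockout (cKO) cerebella. Used here were 16 messenger RNA libraries of whole cerebella at postnatal days 27 to 28, with 4 per group: WT mice after training on the rotarod (a turning rod that the animal has to stay on), WT mice kept at rest in the home cage, WT mice for which no training is named, and Chd4 cKO mice. The sources used here do not give the Cre line that deletes Chd4, the cells it acts in or the training schedule. The trained and rest mice are all WT, and the sources name no trained cKO mice, so training and loss of Chd4 were measured in separate mice. The values are log2 CPM, read counts scaled to library size, on a log2 scale, and each table was scaled separately, so a level in one table is not compared with a level in the other. Rotarod-table libraries are called by their column numbers, 1, 2, 5 and 6 for rest and 3, 4, 7 and 8 for rotarod. A gene's difference is given in log2 CPM ± SE from limma with n = 4 per group, and values per library stand in the order of the library numbers.

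Chd4 is the ATPase of NuRD, a complex that moves nucleosomes and removes acetyl groups from histones, and it is known for restraining transcription. In the cerebellum it is known for its role in the development of granule neurons and their synapses. Firing opens calcium channels and starts transcription through factors such as CREB, which binds the cAMP response element (CRE), and SRF, which binds the CArG box. Some of the genes that rise encode transcription factors, and others encode synaptic, signalling and feedback proteins.

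Promoter sequences from RefSeq (GRCm38.p6, from 250 bases before to 50 bases after each start) were matched for 90 of the 111 genes, with 121 promoters. The stretches shown are of 60 bases and lie before the start. They carry the complete CRE (TGACGTCA, in capitals) that was found before the start of 3 genes, and the CArG box (in capitals) of Fbxl22, the gene that was lowest in cKO relative to WT. They lie at chr4:150854993-150855052 on the + strand (Errfi1), chr5:147726059-147726118 on the - strand (Flt1), chr16:5049940-5049999 on the + strand (Ubn1) and chr9:66514781-66514840 on the - strand (Fbxl22), and the motif begins 51, 81, 91 and 222 bases before the start.
Errfi1: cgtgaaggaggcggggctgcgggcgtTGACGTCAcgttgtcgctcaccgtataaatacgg
Flt1: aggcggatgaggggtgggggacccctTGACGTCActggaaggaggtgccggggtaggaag
Ubn1: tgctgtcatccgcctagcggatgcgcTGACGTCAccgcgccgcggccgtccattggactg
Fbxl22: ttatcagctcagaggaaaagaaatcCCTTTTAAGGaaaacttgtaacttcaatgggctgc

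A complete CRE was found in the promoters of 4 of the 90 genes (4.44%), against 2.54% of 17491 protein-coding genes with an entry and 2.03% of all 27025 genes. Its position in the fourth gene, 9330159F19Rik, lies after the start. The shorter CRE core TGACG, which also lies within every complete CRE, was found in 42.2% of the 90 genes and in 26.2% of protein-coding genes. The SP1 motif GGGCGG was found in 76.7% and 49.2%. A CArG box was found in 4 genes, Elmsan1, Fbxl22, Srrm3 and Tiam1, which is 4.44% against 1.76%. No match was found for the EGR motif GCGTGGGCG or for the NR4A element AAAGGTCA, which were found in 0.95% and 1.49% of protein-coding genes. The TATA box, TATAAA, was found in 13.3% of the 90 genes and 14.8% of protein-coding genes. The E-box, spelled CACGTG, was found in 11.1% and 8.91%, and the heat shock element, GAANNTTC, in 10% and 8.44%. For the AP-1 motif, TGANTCA, the shares were 7.78% and 8.12%. The glucocorticoid response element, ACANNNTGT, had 4.44% and 6.95%, and the MEF2 motif had 1.11% and 4.01%. All motifs were searched on both strands.

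The promoters of these genes were also rich in CpG. A ratio of observed to expected CpG of 0.6 or more was found in 73.6% of their promoters and in 47.7% of the promoters of protein-coding genes. Much of this was shared with other genes of the same tables. Among the other protein-coding genes listed as higher with training, 72.8% had an SP1 motif, 43.0% a CRE core and 5.83% a complete CRE, and 68.5% of their promoters passed the CpG ratio. Among the other genes listed as lower in cKO the shares were 66.5%, 32.2%, 3.26% and 63.1%. The genes higher in both comparisons had an SP1 motif in 75.6%, a CRE core in 51.1% and a complete CRE in 2.22%, and 66.7% of their promoters passed the CpG ratio. The CArG box share was 1.29% and 1.72% in the first 2 of these sets, and 2.22% (1 of 45 genes with an entry) in the genes higher in both. A match describes letters in a window and does not show binding.

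**Figure D1:**
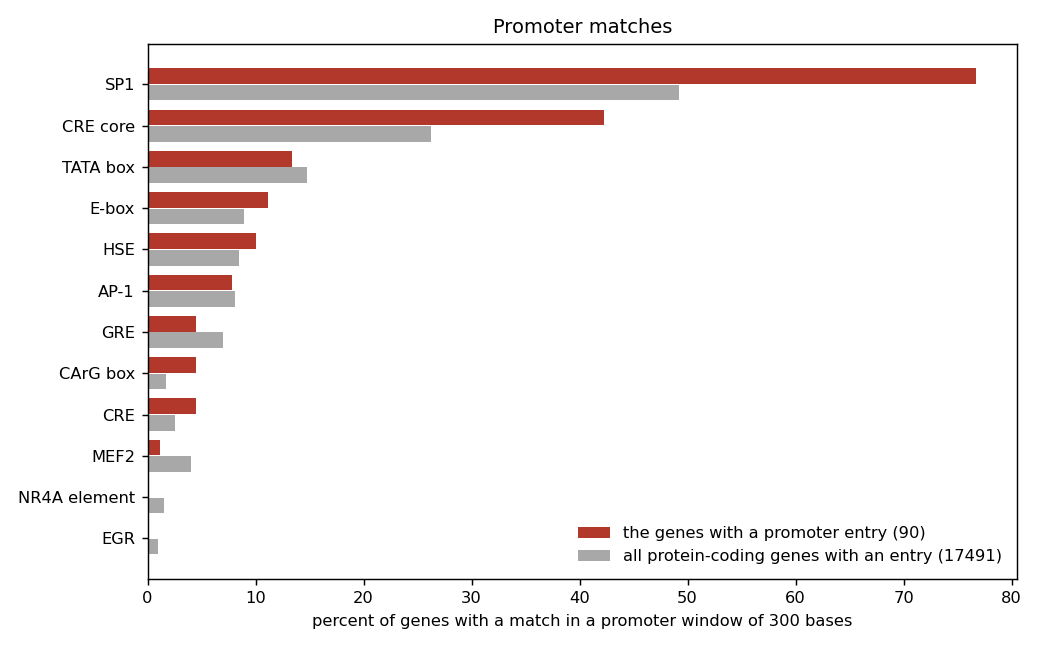
Percent of genes with at least 1 match of each motif in a promoter window of 300 bases, for the 90 genes with an entry (red) and for all 17491 protein-coding genes with an entry (grey). The SP1 motif (76.7% against 49.2%) and the CRE core (42.2% against 26.2%) show the widest gaps.

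The labels were checked on Chd4 itself. It held 8.31 to 8.45 log2 CPM in the WT libraries and 7.90 to 8.06 in the cKO libraries, a difference of -0.44 ± 0.06, and it is not listed in the rotarod table. Chd4 messenger RNA was thus lower in whole cKO cerebellum and still present. Each cKO or WT library held an effective 13.7 to 15.6 M reads and each rotarod or rest library 13.7 to 16.7 M. Of the marker lists of cerebellar cell types, 9 of 12 Purkinje cell, 7 of 10 interneuron and Golgi cell, 9 of 20 vascular, 7 of 14 oligodendrocyte and 8 of 11 meningeal genes were listed as lower in cKO, and 1 interneuron gene was listed as higher. The summed CPM of the listed genes was 8783 to 9321 in WT and 7449 to 8011 in cKO for Purkinje cells, 1158 to 1276 and 1032 to 1129 for interneurons, and 5123 to 6848 and 5013 to 5300 for oligodendrocytes. It was 356 to 460 and 303 to 322 for meningeal cells. Also listed as lower were 4 of 11 astrocyte genes (3601 to 3775 CPM in WT and 3086 to 3359 in cKO) and 3 of 6 choroid plexus genes (17.9 to 36.3 and 14.0 to 21.9). Other lists were mixed or higher. Granule neuron genes were 3 higher and 4 lower of 13 (3962 to 4278 and 3811 to 3921 CPM). Unipolar brush cell genes were 1 higher and 4 lower of 7, and their sum was higher in cKO (957 to 1024 and 1223 to 1349). The higher one, Calb2, is on both of these lists and counts in both sums. The unipolar brush cell sum was higher through Calb2 alone, since the other listed genes were lower. Sums without Calb2 were not computed. The 1 listed microglial gene of 10, Ctss, was higher (11.1 to 16.7 and 15.4 to 19.4). With training, 3 meningeal genes were listed as lower (99.8 to 128 CPM at rest and 69.4 to 89.6 with training), as were the granule neuron gene Cbln1 (1440 to 1769 and 1064 to 1306) and the astrocyte gene Sox9 (54.7 to 66.2 and 43.0 to 46.7). The unipolar brush cell gene Eomes was higher (26.7 to 34.5 and 55.8 to 97.0). No listed marker was at 0 reads in every library of a group. In whole tissue, fewer cells of a type and less RNA per cell cannot be told apart, and the part of these shifts in the values below was not tested.

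Both differences were small for most of the 111 genes. The rotarod minus rest difference ran from 0.22 to 1.49 with a median of 0.37, a 1.29-fold change, and the cKO minus WT difference ran from -2.31 to -0.16 with a median of -0.28, a 1.22-fold change. Over all genes listed as higher with training the median was 0.44, and over all genes listed as lower in cKO it was -0.32. The training difference was under 0.5 in 89 genes and at least 1 in 5 (Zmynd10, Egr4, Ccnb2, Bcl6 and Adam8). The fall in cKO was under 0.5 in 91 genes and over 1 in 2 (Fbxl22 and Gabrr2). The fall in cKO was the smaller of both in 81 genes and at least as large as the training difference in 30. Both were at least 0.5 in 9 genes. Across the 111 genes the size of the fall correlated with the training difference at r = 0.47 (Spearman's rank correlation 0.34), which is a description over genes that share the same libraries. Genes with lower levels had larger differences in both comparisons (r = -0.58 for training with the level at rest, and -0.35 for the fall with the level in WT). The genes were also chosen on both differences, so this correlation is not a finding.

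**Figure D2:**
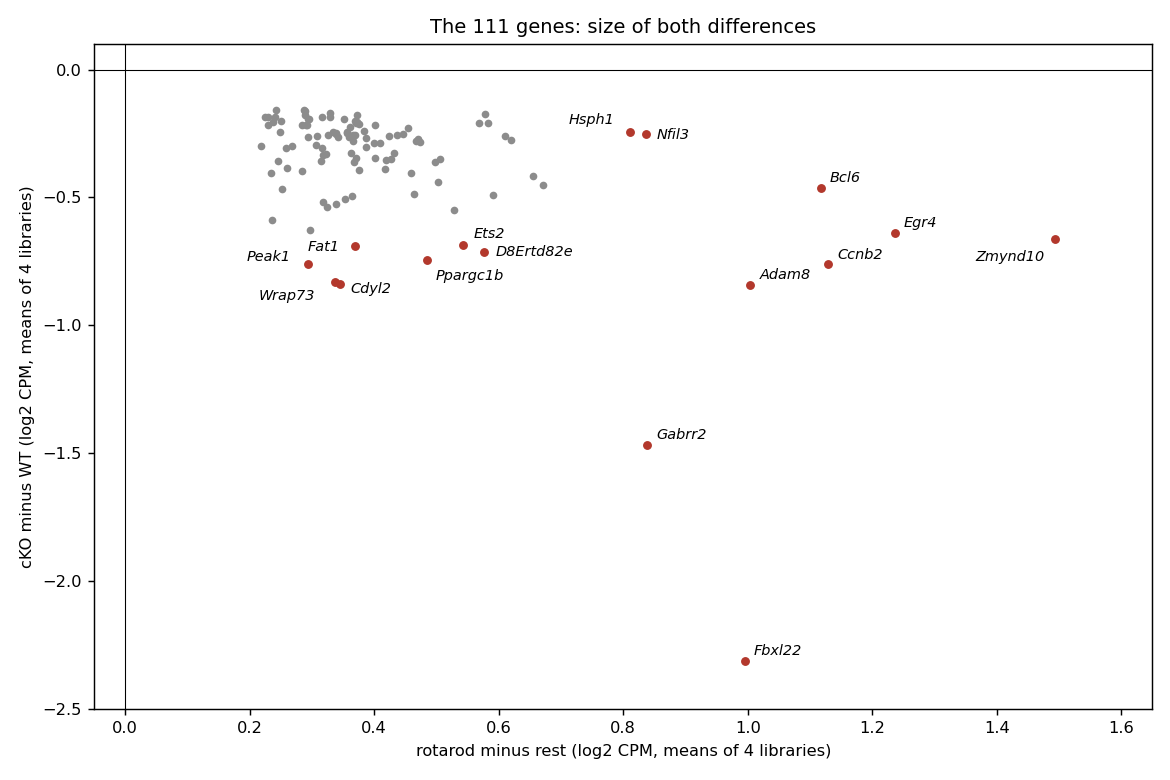
Each point is 1 of the 111 genes, with its rotarod minus rest difference on the horizontal axis and its cKO minus WT difference on the vertical axis, both in log2 CPM. Named points (red) are those farthest from the others. Most genes sit near the medians of 0.37 and -0.28, and Fbxl22 and Gabrr2 stand lowest.

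All 111 genes had been called by the authors in both comparisons, because the rule demands it. The background is that 2.06% of about 26900 features were listed as higher with training and 9.29% of about 27100 as lower in cKO. The groups did not overlap in 95 of the 111 genes for training, beside 83.6% of all genes listed as higher, and in 87 of 111 for cKO, beside 72.6% of all genes listed as lower. In 75 genes neither comparison overlapped, and in 4 (Hba-a1, Hspa5, Mast4 and Srrm3) both did. Limma was fitted on the listed genes alone, with adjustment over all features. It called 15 of the 111 higher with training, beside 113 of all 555 genes listed as higher (0.42% of all features). It called 68 of the 111 lower in cKO, beside 1365 of all 2518 genes listed as lower (5.04% of all features). These counts describe genes that were chosen on the same libraries, and nothing is read from them. Without rest library 1 limma called 4 with training, and 3 to 5 without any other single library of that table. In cKO it called 44 without cKO library 3 and 44 without WT library 4.

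The genes next to the limits of the rule differed little in size. Just inside for training lay Ubr2, a ubiquitin ligase gene (0.22 ± 0.07), and Elmsan1, which encodes a subunit of a histone deacetylase complex (0.22 ± 0.07). Just outside, with the opposite sign, lay Rab1b (-0.23) and Mapk6 (-0.25). Just inside for cKO lay Mtus1, a microtubule-associated gene (-0.16 ± 0.06), and Ubn1, which encodes a subunit of the HIRA histone chaperone complex (-0.16 ± 0.06). Just outside lay Usp10 (0.17) and N4bp1 (0.17). No gene lies closer to 0, because the tables hold called genes alone.

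These genes carried more reads than most of their tables. The mean level at rest had a median of 5.99 log2 CPM, where all genes listed as higher with training had 4.77, and the mean level in WT had a median of 6.26, where all genes listed as lower in cKO had 5.21. The unit is not divided by transcript length, so it describes read number. By the abundance column of the rotarod table, 87.4% of the 111 genes lay at or above its median, beside 53.4% of the 58 genes higher in both comparisons. At least 1000 reads in each of the 4 groups backed 97 of the 111 genes. Genes with lower levels showed larger training differences (r = -0.58 and Spearman's rank correlation -0.46 across the 111 genes). A table of called genes lists small differences only where reads are many, so this relation describes the tables too.

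Most single libraries lay on the side by which the genes were chosen, so the counts that follow describe the choice and are not findings. Rotarod libraries 3, 4, 7 and 8 lay above every rest library in 105, 109, 104 and 105 of the 111 genes, and cKO libraries 1 to 4 lay below every WT library in 101, 107, 102 and 99. Rest library 1 stood nearest to the rotarod libraries, above the mean of its own group in 86 of 111 genes, with a median of 0.09 above that mean. The medians of rest libraries 2, 5 and 6 were -0.01, -0.04 and -0.04. Without rest library 1 the median training difference was 0.40, and 107 genes did not overlap in place of 95, a count that cannot fall when a library is left out. The direction held in all 111 genes in both comparisons when any 1 library was left out, which was likely from the start for called genes chosen by direction.

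**Figure D3:**
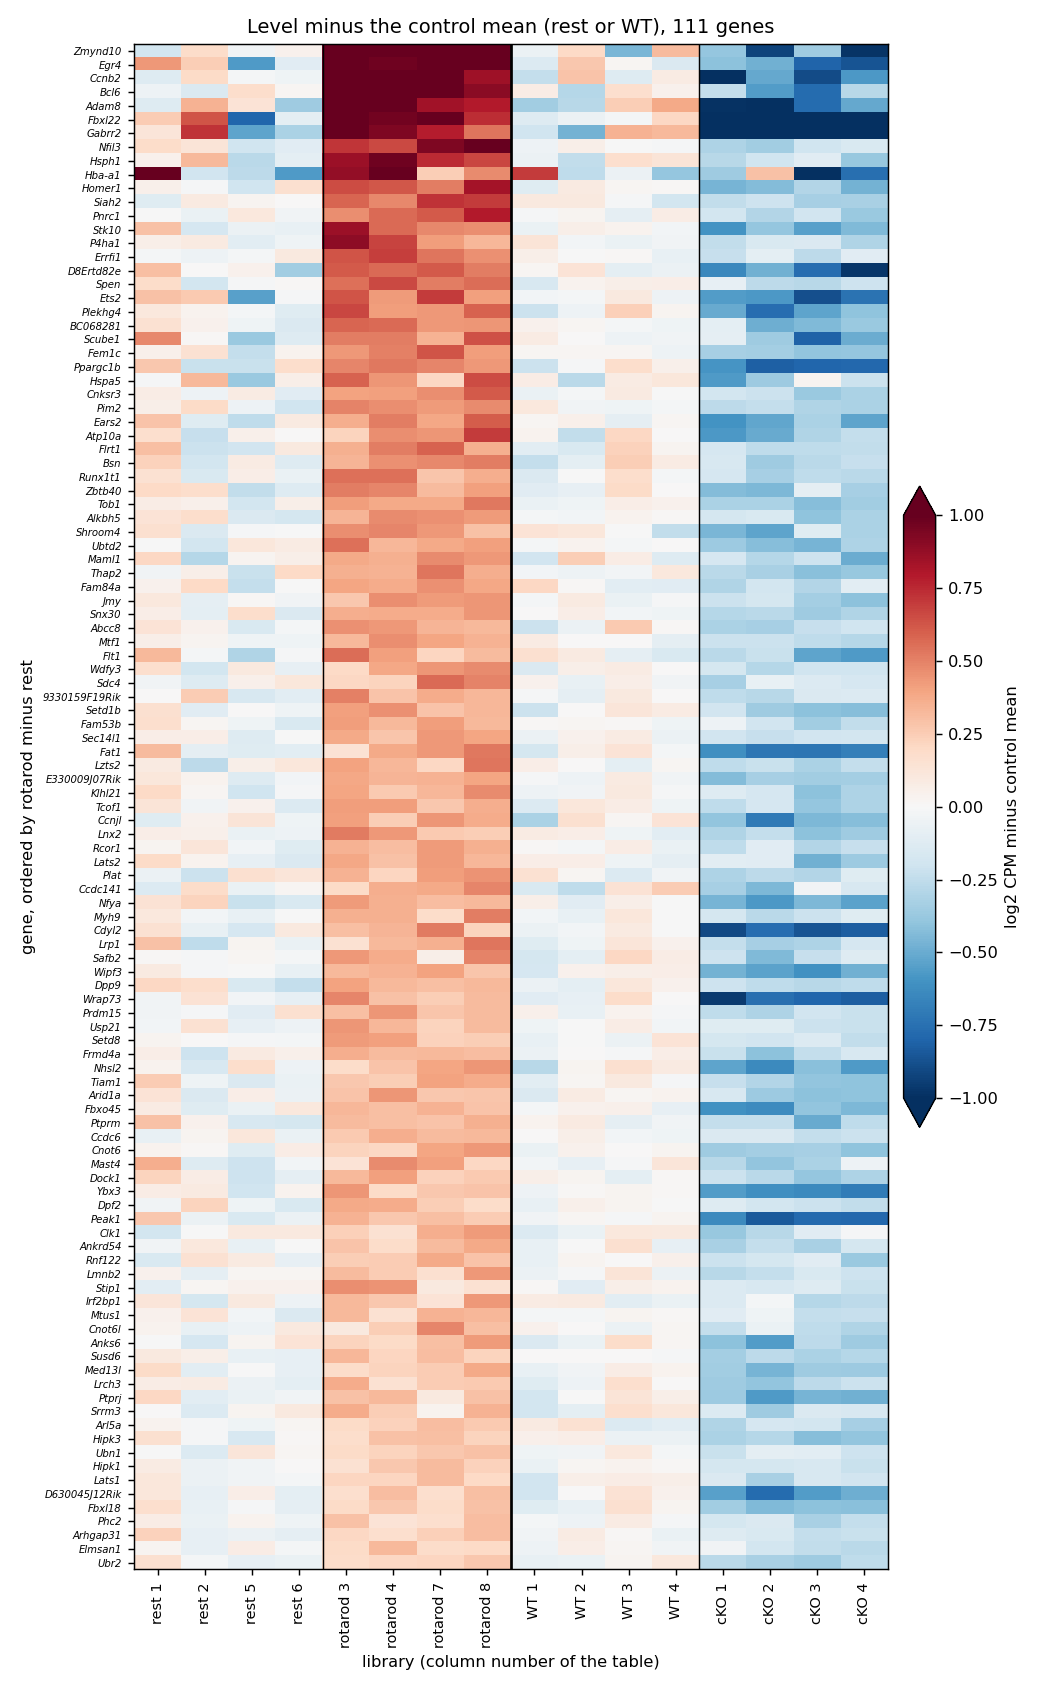
Level of each of the 111 genes (rows, ordered by the rotarod minus rest difference) in each of the 16 libraries (columns), as log2 CPM minus the mean of the control group of the same table (rest or WT). Colours end at 1 and -1. The rotarod libraries are red and the cKO libraries blue almost throughout, and rest library 1 is above its group mean in 86 genes.

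Fbxl22 and Gabrr2 had the lowest values in cKO relative to WT. Fbxl22 encodes an F-box protein, the substrate-binding part of a ubiquitin ligase. It held 3.41, 3.79, 2.37 and 3.06 log2 CPM at rest and 4.30, 4.12, 4.29 and 3.89 in the rotarod libraries. In the other table it held 3.92, 3.98, 4.02 and 4.25 in WT and 1.57, 1.54, 2.01 and 1.80 in cKO. All 4 rotarod libraries stood above all rest libraries, whose own values were widely spread, and the cKO libraries lay far below every WT library. The training difference was 1.0 ± 0.27, and Fbxl22 was 4.97-fold lower in cKO (-2.31 ± 0.12), with 972 reads over the WT and 186 over the cKO libraries. Gabrr2 encodes a subunit of ionotropic GABA receptors, which are chloride channels. It held 0.94, 1.54, 0.29 and 0.50 at rest and 1.92, 1.75, 1.60 and 1.35 after training, where the groups overlapped because rest library 2 lay above rotarod library 8. WT libraries held 1.76, 1.49, 2.31 and 2.29 and cKO libraries 0.02, 0.87, 0.52 and 0.58, with no overlap. Its differences were 0.84 ± 0.26 and -1.47 ± 0.23, from 231 reads over the WT and 76 over the cKO libraries.

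Among the members with the fewest reads, the training difference was large. Zmynd10, needed for the assembly of dynein arms in motile cilia, had 53 reads over the rest and 181 over the rotarod libraries. Its levels were -0.14, 0.23, 0.00 and 0.08 log2 CPM at rest and 1.69, 1.70, 1.18 and 1.58 in rotarod libraries, and 1.30, 1.56, 0.90 and 1.67 in WT and 0.97, 0.44, 1.0 and 0.38 in cKO. Training separated the groups by 1.49 ± 0.13, the highest value of the 111 genes, while WT library 3 lay among the cKO libraries (-0.66 ± 0.21). Ccnb2, a cyclin gene of mitosis, held 0.34, 0.67, 0.45 and 0.43 at rest, 1.67, 1.61, 1.80 and 1.32 with training, 0.85, 1.37, 0.95 and 1.16 in WT and 0.02, 0.57, 0.19 and 0.51 in cKO. Neither comparison overlapped (1.13 ± 0.12 and -0.76 ± 0.16). Adam8, a membrane-bound metalloprotease gene, behaved alike, with differences of 1.0 ± 0.17 and -0.84 ± 0.20 and 122, 275, 290 and 153 reads over the rest, rotarod, WT and cKO libraries.

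Of 28 activity transcription factor genes on the list, 15 were listed as higher with training and 1 as lower. Of these 15, 2 were lower in cKO, Egr4 and Nfil3, and 6 were higher (Cebpb, Csrnp1, Egr1, Fos, Fosl2 and Ier2). The other 7 have no value in the cKO table. Egr4 encodes a zinc finger factor of the EGR family. It held 4.38, 4.18, 3.38 and 3.83 log2 CPM at rest and 5.17, 4.91, 5.17 and 5.45 in rotarod libraries, and 3.78, 4.19, 3.94 and 3.78 in WT and 3.52, 3.44, 3.12 and 3.06 in cKO. The groups were apart in both comparisons, by 1.24 ± 0.21 and -0.64 ± 0.13. Nfil3 encodes a leucine zipper repressor that is also part of the circadian clock's output. It held 3.77, 3.72, 3.39 and 3.48 at rest and 4.30, 4.25, 4.52 and 4.63 with training (0.84 ± 0.12), and in cKO each library lay a little below every WT library (-0.25 ± 0.06).

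The list of activity effectors holds 50 genes. Of these, 22 were higher with training, and of the 22, 3 were lower in cKO (Homer1, Tob1 and Errfi1), 4 were higher (Btg2, Coq10b, Rgs2 and Trib1) and 15 have no value there. Homer1 encodes a postsynaptic scaffold that couples glutamate receptors to calcium stores. A short form of it is known to be induced by activity, and the tables count the gene as a whole. Homer1 held 5.36, 5.30, 5.11 and 5.47 log2 CPM at rest and 5.96, 5.94, 5.82 and 6.14 in rotarod libraries, and 6.08, 6.29, 6.22 and 6.21 in WT and 5.74, 5.77, 5.91 and 5.73 in cKO. Every library of the higher group lay above every one of the lower, with differences of 0.65 ± 0.10 and -0.41 ± 0.07. Its neighbour in the RefSeq gene order, Jmy, encodes an actin nucleator (0.40 ± 0.07 and -0.29 ± 0.07). Homer1 and Jmy were the only adjacent pair among the 90 genes with a promoter entry, and the other genes were not checked.

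Errfi1 encodes an inhibitor of the EGF receptor and is the gene whose CRE is printed above. It held 5.32, 5.29, 5.32 and 5.43 at rest and 5.97, 6.03, 5.88 and 5.80 with training, a clear step of 0.58 ± 0.07. WT libraries held 6.28, 6.22, 6.23 and 6.15 and cKO libraries 5.99, 6.12, 5.95 and 6.11, and the gap between these groups was narrow (-0.18 ± 0.06). Tob1, which slows proliferation and recruits the CCR4-NOT deadenylase, held 6.23, 6.20, 5.97 and 6.21 at rest and 6.57, 6.53, 6.53 and 6.68 in rotarod libraries. In WT it held 5.82, 5.84, 5.95 and 5.92 and in cKO 5.57, 5.57, 5.46 and 5.53. Neither comparison of Tob1 overlapped (0.43 ± 0.08 and -0.35 ± 0.05). Both deadenylase genes Cnot6 (0.31 ± 0.08 and -0.36 ± 0.05) and Cnot6l (0.28 ± 0.09 and -0.22 ± 0.06) were in the set as well, an observation made after their values were seen.

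The list of regulators of chromatin and transcription, also the longest list, held more of the 111 genes than any other. Of its 278 genes, 37 were higher and 0 lower with training, and 31 were higher and 72 lower in cKO. Of the 37, 9 were lower in cKO (Bcl6, Ets2, Ppargc1b, Setd1b, Zbtb40, Arid1a, Med13l, Runx1t1 and Phc2), 2 were higher (Bcorl1 and Mafg) and 26 have no value there. The median differences of the 9 genes were 0.43 with training and -0.35 in cKO, beside 0.37 and -0.28 over all 111. For comparison, 132 of all 555 genes listed as higher with training were lower in cKO and 75 were higher.

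Bcl6 encodes a transcriptional repressor that also appears on the list of glucocorticoid-responsive genes. It held 5.91, 5.82, 6.14 and 5.98 log2 CPM at rest and 7.20, 7.15, 7.10 and 6.86 in rotarod libraries, a 2.17-fold step with no overlap (1.12 ± 0.10). WT libraries held 7.29, 6.92, 7.38 and 7.26 and cKO libraries 6.97, 6.65, 6.44 and 6.93, where cKO libraries 1 and 4 lay above WT library 2 (-0.46 ± 0.14). Ppargc1b encodes PGC-1beta, a coactivator of genes for mitochondrial respiration. It held 6.07, 5.58, 5.58 and 5.98 at rest and 6.29, 6.33, 6.29 and 6.23 with training, and 6.00, 6.21, 6.40 and 6.28 in WT and 5.63, 5.41, 5.43 and 5.44 in cKO. Its rotarod libraries were tightly grouped above the spread rest libraries, and its fall in cKO was the larger change (0.48 ± 0.12 and -0.75 ± 0.09). Ets2, a factor that acts downstream of MAP kinases, held 6.80, 6.76, 5.95 and 6.49 at rest and 7.13, 6.93, 7.20 and 6.91 with training, and 6.99, 7.0, 7.11 and 6.96 in WT and 6.46, 6.44, 6.14 and 6.28 in cKO. The rest libraries of Ets2 varied more than its other groups, and without rest library 5 its training difference dropped from 0.54 to 0.36. In cKO no library reached the WT range (-0.69 ± 0.08).

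Setd1b, a methyltransferase of histone H3 lysine at active promoters, held 7.51, 7.23, 7.35 and 7.31 at rest and 7.76, 7.80, 7.64 and 7.68 with training (0.37 ± 0.08). In cKO, library 1 lay above WT library 1 (-0.35 ± 0.09). Arid1a, a subunit of the BAF remodeler, had differences of 0.32 ± 0.08 and -0.34 ± 0.08, and Med13l, of the Mediator kinase module, had 0.26 ± 0.08 and -0.38 ± 0.05. Runx1t1, a corepressor gene, had 0.44 ± 0.10 and -0.26 ± 0.08, Zbtb40 0.43 ± 0.11 and -0.33 ± 0.10, and the Polycomb gene Phc2 0.23 ± 0.07 and -0.22 ± 0.06. More genes of this kind were in the set but not on the list, and they are named after their values were seen. Dpf2, another BAF subunit, had 0.30 ± 0.09 and -0.19 ± 0.05. Rcor1, the CoREST scaffold, had 0.36 ± 0.07 and -0.22 ± 0.06. The histone H4 methyltransferase gene Setd8 had 0.33 ± 0.07 and -0.19 ± 0.06, and Nfya, a subunit of the CCAAT-binding factor NF-Y, had 0.35 ± 0.11 and -0.51 ± 0.06.

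Cdyl2, Wrap73 and Peak1 shared a pattern of a modest training difference and a larger fall in cKO. Cdyl2 encodes a chromodomain protein that binds methylated histone H3. It held 5.63, 5.41, 5.31 and 5.58 log2 CPM at rest and 5.78, 5.82, 6.00 and 5.70 in rotarod libraries, and 5.53, 5.55, 5.67 and 5.58 in WT and 4.68, 4.82, 4.72 and 4.76 in cKO. The step in cKO was wide against the spread within either group (0.34 ± 0.10 and -0.84 ± 0.05). Wrap73, which encodes a WD-repeat protein of centrosomes, held 5.55, 5.58, 5.85 and 5.67 in WT and 4.71, 4.91, 4.87 and 4.84 in cKO (-0.83 ± 0.08). Its training difference was 0.34 ± 0.08.

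Peak1 and D8Ertd82e encode related pseudokinases that act as scaffolds at the cytoskeleton. Peak1 held 7.28, 6.96, 6.87 and 6.95 at rest and 7.36, 7.28, 7.32 and 7.27 with training, where rest library 1 reached the rotarod range. In WT it held 7.49, 7.55, 7.52 and 7.56 and in cKO 6.89, 6.69, 6.75 and 6.74, far apart (0.29 ± 0.10 and -0.76 ± 0.06). D8Ertd82e held 7.19, 6.89, 6.93 and 6.54 at rest and 7.50, 7.45, 7.50 and 7.40 in rotarod libraries, and 7.32, 7.44, 7.20 and 7.24 in WT and 6.66, 6.82, 6.54 and 6.33 in cKO. No library of D8Ertd82e crossed into the other group (0.58 ± 0.12 and -0.71 ± 0.11).

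**Figure D4:**
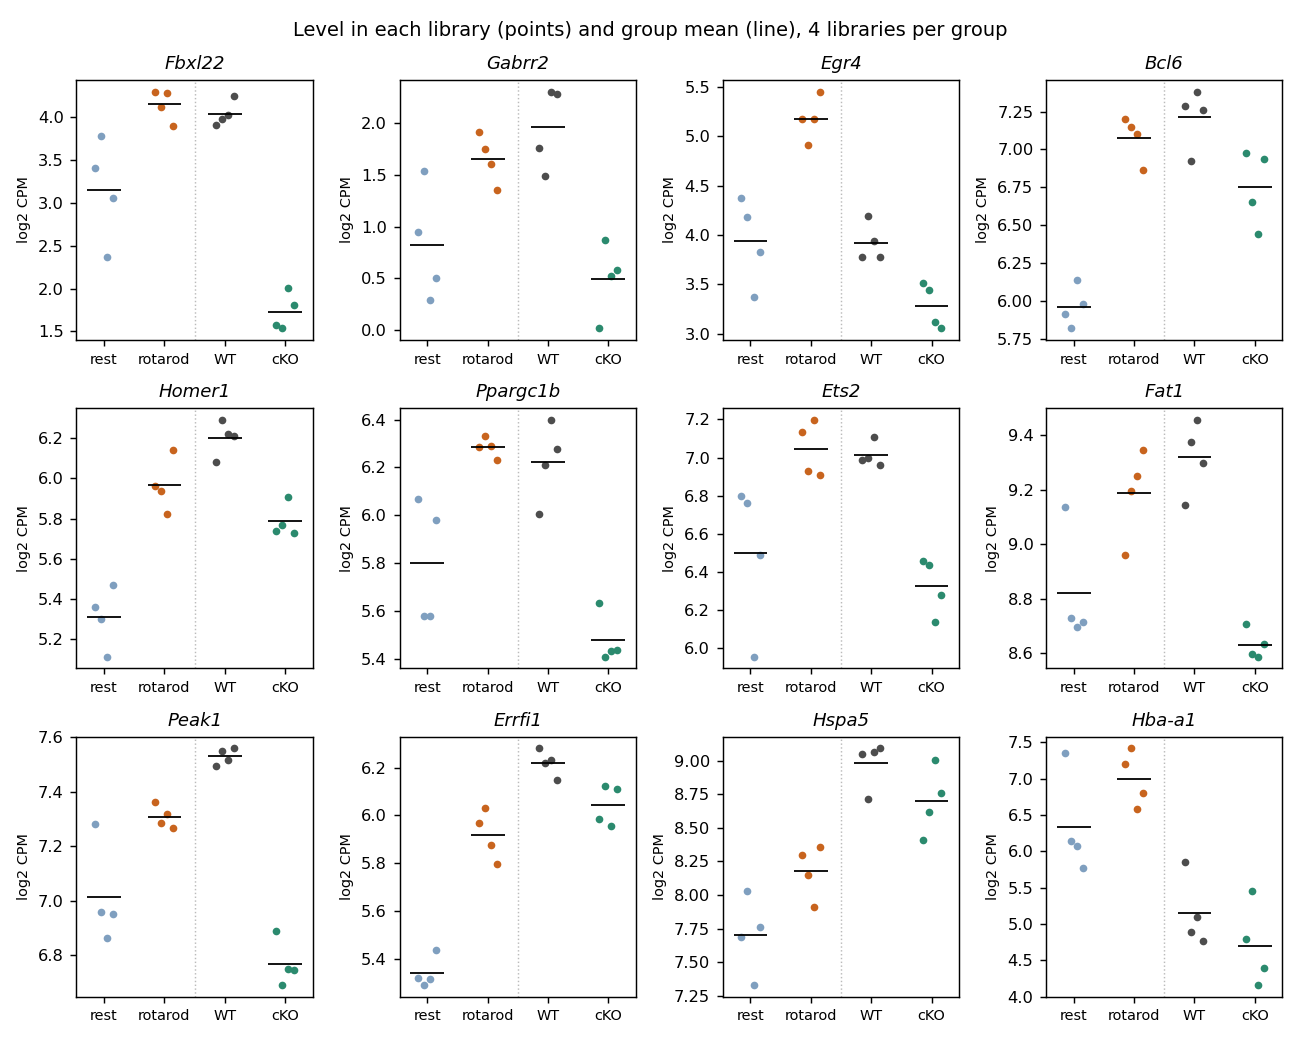
Level in log2 CPM of 12 of the genes in each library (points) and the mean of each group (line), with 4 libraries per group and the 2 tables parted by a dotted line. Vertical axes differ between panels and do not start at 0. Fbxl22, Homer1, Ppargc1b, Ets2, Egr4 and Errfi1 do not overlap in either comparison, and Hspa5 and Hba-a1 overlap in both.

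Of 37 Notch and Hippo signalling genes, 6 were higher and 1 lower with training, and 5 were higher and 13 lower in cKO. Of the 6, 4 were lower in cKO and none higher, beside 132 lower of all 555 genes listed as higher with training. Fat1 encodes a giant atypical cadherin that acts upstream of Hippo signalling. It held 9.14, 8.73, 8.70 and 8.71 log2 CPM at rest and 8.96, 9.20, 9.25 and 9.35 with training, and rest library 1 overlapped the rotarod range (0.37 ± 0.12). In WT it held 9.15, 9.37, 9.46 and 9.30 and in cKO 8.71, 8.60, 8.59 and 8.63, with no overlap (-0.69 ± 0.07). Lats1 and Lats2 encode the 2 paralogous kinases that inactivate YAP, the effector of the Hippo pathway. Lats2 held 5.87, 5.71, 5.59 and 5.53 at rest and 6.06, 5.96, 6.10 and 6.01 with training, 6.39, 6.39, 6.28 and 6.24 in WT and 6.22, 6.21, 5.84 and 5.96 in cKO, with no overlap (0.36 ± 0.08 and -0.27 ± 0.10). Lats1 had differences of 0.24 ± 0.07 and -0.21 ± 0.08, and WT library 1 lay within its cKO range. Maml1, the coactivator of Notch, had 0.41 ± 0.10 and -0.29 ± 0.11, with an overlap in cKO.

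Kinases and phosphatases gave 6 members of 149 genes listed, with 15 higher and 1 lower with training and 31 higher and 32 lower in cKO. Of the 15, 3 were higher in cKO (Mknk2, Ptpn1 and Ptpn3). Stk10, a kinase gene for the proteins that anchor actin to the membrane, had the largest joint change, with 5.23, 4.77, 4.87 and 4.86 at rest and 5.79, 5.50, 5.41 and 5.40 in rotarod libraries, and 5.52, 5.65, 5.62 and 5.56 in WT and 4.99, 5.20, 5.04 and 5.14 in cKO. Both comparisons of Stk10 were free of overlap (0.59 ± 0.13 and -0.49 ± 0.06). The receptor phosphatase genes Ptprm (0.32 ± 0.11 and -0.31 ± 0.08) and Ptprj (0.25 ± 0.09 and -0.47 ± 0.08) overlapped with training and not in cKO. The nuclear kinase genes Hipk3 (0.25 ± 0.08 and -0.36 ± 0.06) and Hipk1 (0.24 ± 0.07 and -0.19 ± 0.05) had training differences of close size, and Clk1, which phosphorylates splicing factors, had 0.29 ± 0.09 and -0.19 ± 0.10.

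Tiam1, Dock1 and Arhgap31 encode regulators of Rac. Tiam1, which activates Rac in dendritic spines, held 8.71, 8.42, 8.31 and 8.39 at rest and 8.73, 8.71, 8.86 and 8.83 with training, so that rest library 1 touched the rotarod range (0.32 ± 0.10). It held 8.59, 8.71, 8.79 and 8.68 in WT and 8.46, 8.40, 8.30 and 8.29 in cKO, with no overlap (-0.33 ± 0.06). Dock1, another Rac activator, had 0.31 ± 0.10 and -0.30 ± 0.06, and Arhgap31, which inactivates Rac and Cdc42, had 0.23 ± 0.09 and -0.18 ± 0.05. Plekhg4 had no overlap and differences of similar size (0.53 ± 0.08 and -0.55 ± 0.11).

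Cytoskeleton and scaffold genes made up 5 of the set, out of 145 on the list, of which 6 were higher with training and 0 lower. Bsn encodes Bassoon, a giant scaffold of the presynaptic active zone. It held 9.51, 9.10, 9.37 and 9.15 at rest and 9.62, 9.74, 9.76 and 9.79 in rotarod libraries, with no overlap (0.45 ± 0.10), and cKO libraries 1 and 4 lay above WT library 1 (-0.25 ± 0.10). Nhsl2 had 0.32 ± 0.09 and -0.54 ± 0.10. The other members were Shroom4 (0.42 ± 0.08 and -0.35 ± 0.11), Frmd4a (0.33 ± 0.08 and -0.26 ± 0.06) and the nonmuscle myosin gene Myh9 (0.35 ± 0.08 and -0.19 ± 0.06). Of 170 genes for synapses and adhesion, 5 were higher and 2 lower with training, and 33 were higher and 53 lower in cKO. Of the 5, Rtn4r was higher in cKO and 3 have no value there. Flrt1, an adhesion protein of synapses, was the one member (0.45 ± 0.13 and -0.23 ± 0.09).

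Ubiquitin ligase genes in the set were Siah2 (0.62 ± 0.08 and -0.28 ± 0.07), Klhl21 (0.37 ± 0.09 and -0.25 ± 0.07) and Rnf122 (0.29 ± 0.08 and -0.22 ± 0.07), 3 of 130 on the list, of which 6 were higher with training. In cKO, 21 of the 130 were higher and 26 lower. Ears2, which charges mitochondrial tRNA with glutamate, had 0.46 ± 0.12 and -0.49 ± 0.07, nearly the same size both ways.

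Of 32 heat shock and stress genes, 9 were higher and 0 lower with training, and 2 of the 9 were lower and 1 higher in cKO (Dnajb4). Hsph1, a cochaperone of Hsp70, held 6.36, 6.64, 6.05 and 6.22 at rest and 7.17, 7.29, 7.07 and 6.98 with training, with a wide gap (0.81 ± 0.13). In cKO, libraries 2 and 3 overlapped the WT range (-0.24 ± 0.10). Hspa5, the endoplasmic reticulum chaperone BiP, held 7.69, 8.03, 7.33 and 7.76 at rest and 8.29, 8.15, 7.91 and 8.35 in rotarod libraries, and 9.05, 8.71, 9.06 and 9.09 in WT and 8.41, 8.62, 9.01 and 8.76 in cKO. Both comparisons of Hspa5 overlapped (0.47 ± 0.16 and -0.28 ± 0.14), and leaving out 1 library moved the cKO difference between -0.19 (without cKO library 1) and -0.38 (without cKO library 3). Stip1, which links Hsp70 and Hsp90, is named after its values were seen (0.29 ± 0.10 and -0.16 ± 0.06).

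Only Flt1 and Hba-a1 were in a marker list of another cell type. Flt1 encodes a VEGF receptor of endothelial cells and carries a CRE printed above. It held 5.84, 5.50, 5.22 and 5.51 log2 CPM at rest and 6.08, 5.93, 5.73 and 5.84 with training, where rest library 1 overlapped the rotarod range, and 6.17, 6.10, 5.92 and 5.86 in WT and 5.74, 5.79, 5.49 and 5.44 in cKO, with no overlap (0.38 ± 0.14 and -0.39 ± 0.11). It was the only 1 of 20 vascular markers listed in the rotarod table. In cKO 9 of the 20 were listed, all lower, with a summed 177 to 209 CPM in WT and 136 to 159 in cKO and no listed marker at 0. The part of this shift in the cKO value of Flt1 was not tested.

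Hba-a1 encodes alpha globin of red blood cells and has a near-identical copy, Hba-a2, so its reads are uncertain between both. It held 7.35, 6.14, 6.07 and 5.77 at rest and 7.21, 7.41, 6.58 and 6.80 with training, and 5.86, 4.9, 5.10 and 4.77 in WT and 4.80, 5.45, 4.16 and 4.40 in cKO. All 4 groups were spread widely and both comparisons overlapped (0.67 ± 0.34 and -0.45 ± 0.32). With 1 library left out, the training difference ran from 0.48 to 1.01 (without rest library 1), and the cKO difference ran from -0.22 without WT library 1 to -0.70 without cKO library 2 (-0.27 without cKO library 3). Of 6 red blood cell markers, 1 was listed as lower and 1 as higher in cKO, with a summed 30.1 to 61.3 CPM in WT and 22.8 to 49.5 in cKO. With training Hba-a1 was the only one listed, at 54.4 to 163 CPM at rest and 95.6 to 171 with training. Leaving out Flt1 and Hba-a1 gave medians of 0.36 with training and -0.28 in cKO over the other genes.

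Several lists gave no member. These were G-protein-coupled receptors and their regulators (136 genes, 3 higher and 4 lower with training), TGF-beta, BMP and Wnt signalling (68 genes, 1 and 4), cyclic AMP and calcium signalling (83 genes, 2 and 1) and lipid and glucose metabolism (99 genes, 3 and 1). Of 27 glucocorticoid-responsive genes, 15 were higher and 0 lower with training, and of these 2 were lower in cKO (Bcl6 and Errfi1) and 2 higher (Map3k6 and Zfp36). The lists together took in 39 of the 111 genes and left 72 outside. Among the 72, named after their values were seen, Pnrc1, a nuclear receptor coactivator gene, had 0.61 ± 0.08 and -0.26 ± 0.06, and the RNA demethylase gene Alkbh5 had 0.42 ± 0.10 and -0.26 ± 0.07. Ybx3, a cold-shock domain protein that binds RNA, had 0.30 ± 0.09 and a larger fall in cKO (-0.63 ± 0.05).

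None of the 111 genes was listed in either Sync-TRAP table, which hold 38 and 51 called genes of ribosome-bound RNA from cerebella at postnatal day 12. A gene that is not listed there has no value, so ribosome-bound levels of these genes were not analysed here.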

How the data were processed

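Messenger RNA of 16 cerebella was measured by sequencing. The authors deposited, for each comparison, log2 CPM per library with a prior count, and the submitters' processing notes name Bowtie, build mm9 and edgeR. The sources used here give no versions, counting tool or strand setting. The authors' adjusted p-values reach at most 0.0499, so the tables list called genes alone, and a gene absent from them has no value. Adjusted p times rank over p gave the number of features tested.

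Repeated lines of a gene were removed, which turned 913 and 5557 lines into 908 and 5508 genes. The deposited log2 values of each whole table were fitted with limma 3.58.1 (R 4.3.3) for differences and SEs, without a pseudocount, and Benjamini-Hochberg adjustment ran over all features tested, at 0.05. This fit was tested on simulated data. Values of up to 20 reads were whole within 0.1 read in 100% of cases, which gave the reads and effective depths, and these limit the precision of the genes with few reads. Promoter motifs were counted in RefSeq windows on both strands.

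Named genes were the 12 with the largest training difference, the 12 with the largest fall in cKO, the 12 with the largest smaller difference, up to 4 per list and the 2 on each side of each limit. The members, the 18 functional and 11 marker lists and the tests were chosen with earlier results of these data known. The counts of 1 functional list are not reported here. Columns of the rotarod table match sample titles by group and not by number. Labels do not say whether libraries come from separate litters, and the SEs measure the spread between these libraries. The numbers of the cKO and WT libraries were not taken as pairs. Alternatives were other pseudocounts, thresholds, subsets of libraries and genes, each library left out, limma with a trend and a replicate block. The region lists on mm9 were not used here.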

Additional observations from a re-analysis of the deposited data

Results flagged for a closer look

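Among 188 groups of 4 libraries (the 47 named genes in 4 groups each), 14 held 1 library that lay far from the other 3, by Dixon's ratio of its gap to the whole range at the 95% level. Chance flags about 1 in 20 such groups. Values are log2 CPM.

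Rest library 1 was far above the others of its group for Fat1 (9.14, the others 8.70 to 8.73) and Arhgap31 (6.85, the others 6.52 to 6.56). Rest library 5 was low for Tob1 (5.97, the others 6.20 to 6.23), and rest library 2 was low for Frmd4a (6.20, the others 6.46 to 6.49). Rotarod library 7 was high for Lats1 (6.82, the others 6.71 to 6.73) and low for Ptprj (6.35, the others 6.55 to 6.59). Rotarod library 4 was high for Elmsan1 (5.77, the others 5.63 to 5.65) and low for Mtus1 (7.66, the others 7.83 to 7.85).

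WT library 1 was low for Lats1 (6.46, the others 6.71 to 6.72), WT library 2 was low for Hspa5 (8.71, the others 9.05 to 9.09), and WT library 3 was high for Ubn1 (6.74, the others 6.60 to 6.61). CKO library 1 was high for Ppargc1b (5.63, the others 5.41 to 5.44) and Flrt1 (5.33, the others 5.25). CKO library 3 was low for Ptprm (6.39, the others 6.64 to 6.66).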

How the results depend on the processing

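The number of genes under the rule was 111 without any 1 library, with medians in place of means and with the sign of the authors' log2 fold change, 130 with no family left out and 58 at the authors' adjusted p under 0.01 in both tables. The median training difference stayed between 0.32 and 0.43 and the median cKO difference between -0.34 and -0.25 over all alternatives run. Limma called 38 genes in place of 15 for training with a trend, and 109 for training and 105 in place of 68 for cKO when adjusted over the listed genes alone. Without 1 library it called 3 to 5 for training and 44 to 60 for cKO. With the replicate block it called 51 in cKO. Same-numbered cKO and WT libraries deviated together at correlations of 0.098, 0.160, 0.131 and 0.085. Other cKO and WT libraries within numbers 1 and 2, or within 3 and 4, gave 0.030 to 0.184. Those across these sets of numbers gave -0.163 to 0.031. What such libraries shared was not tested. The labels do not say that a number pairs animals, and the numbers were not taken as pairs. The genes were called and chosen by direction, so changes of sign were unlikely from the start. Of 1175 alternative values of the 94 named differences, 0 changed sign and 67 moved by more than the spread between libraries. The cause of these shifts was not tested. Leaving out 1 library moved a difference over 1.5 times in Ets2 and Hba-a1 for training, and in Hba-a1, Hspa5 and Ccdc141 for cKO (Ccdc141 gave -0.16 without WT library 4, from -0.24). Motif counts using only bases before the start fell from 69 to 66 for SP1 and from 38 to 33 for the CRE core. Depth limits Zmynd10, Ccnb2, Adam8 and Gabrr2 most.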
